A study of Mus musculus with 16 samples.

Results

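The heat shock chaperone genes Hspa1a, Hspa1b, Hspa8, Dnajb1, Hsph1, Hsp90aa1, Bag3, Hspb1, Hspe1 and Hspd1 were followed on arrays of mouse embryonic stem cells (mESCs) on the way to cardiomyocytes. They were chosen by name, as 10 of 29226 genes tested, and they were measured by 12 of 60273 probes. Only 1 of these probes carries a symbol of the set as its gene name in the files. The others carry a RefSeq accession and were named through it, except a second Hspd1 probe, named through another RefSeq accession listed as matching it. The cells were of the CGR8-Myh6-GFP line, in which the promoter of Myh6, a myosin of heart muscle, drives GFP, and all groups shared this 1 line and its differentiation medium. From day 4 of differentiation they received the vehicle DMSO, WS1442 at 0.25 mg/ml, an ethanolic dry extract of hawthorn leaves with flowers, or MeOH eluate at 0.1 mg/ml, the part of that extract which methanol washes off a Sephadex column. RNA was taken after 6 h or 24 h, with 2 samples of DMSO, 3 of WS1442 and 3 of MeOH eluate per time point, which gives 16 one-colour Agilent arrays in 6 groups. The doses of both preparations differ, and the labels do not say whether replicates came from separate differentiations, so p-values measure the spread between these samples, which may be technical.

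Heat shock proteins are chaperones, which bind unfolded or damaged proteins and help them to fold, to be stored or to be degraded. Hsp70 takes up a client with the help of J-domain proteins and lets it go with the help of Hsp110 and Bag proteins, Hsp90 acts on clients that are nearly folded, small heat shock proteins hold clients soluble, and the chaperonin Hsp60 with its lid Hsp10 folds proteins inside mitochondria. When unfolded proteins accumulate, the transcription factor HSF1 binds heat shock elements, alternating repeats of GAA and TTC, in front of several of these genes and raises their transcription within hours.

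The regions in front of the genes were searched for such letters, because the members differed in their response. RefSeq (GRCm38.p6) gave windows from 250 bases before to 50 bases after a start site for 8 of the 10 members, and for Hsp90aa1 and Hspa8 none was in the table used here. The letters GAANNTTC or TTCNNGAA, on either strand, stood in 15.1% of all 32851 windows. The stretches below are shown for 1 of the Hsp70 genes, a small heat shock protein, an Hsp110 and a chaperonin gene, which behaved unlike each other, each read 5′ to 3′ along the gene, with the matching letters in capitals.
Hspa1a, chr17:34972241-34972272, minus strand: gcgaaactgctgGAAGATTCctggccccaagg
Hspb1, chr5:135887790-135887841, plus strand: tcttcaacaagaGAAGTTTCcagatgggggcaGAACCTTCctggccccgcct
Hsph1, chr5:149636350-149636381, minus strand: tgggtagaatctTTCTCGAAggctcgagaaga
Hspe1, chr1:55088047-55088088, plus strand: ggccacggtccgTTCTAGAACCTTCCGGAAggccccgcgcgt
Hspa1b holds the same stretch as Hspa1a, and the windows of this pair agreed at 296 of 300 positions. Hspe1 and Hspd1 start head to head and overlap by 96 bases, so that the Hspe1 stretch also lies in one of the windows of Hspd1, where it reads on the minus strand. The longer form, with 1 more repeat at the same spacing, overlaps with the short ones. Whether it starts with GAA or with TTC depends on the strand read, so both spellings are 1 motif. It stood in the windows of Hspe1, Hspd1 and Hsph1 and in 0.603% of all windows. In Hsph1 and in Bag3, which had 1 short site, a match lay after the start site. Neither window of Dnajb1 held any of these letters. Matches stood by genes that rose and by genes that fell, and the windows of Dnajb1, which rose, had none. Only exact letters within these windows were searched, so other forms and more distant sites would be missed. A link between the letters and the responses was not tested.

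The response of the set was split. Hspa1a, an inducible Hsp70, and its J-domain partner Dnajb1 rose with both preparations at both time points. Their calls with WS1442 at 6 h were lost without WS1442 6 h replicate 3, and 75th percentile scaling ended the other calls of Dnajb1. Hspb1, a small heat shock protein, rose after 24 h with both, and Bag3, which releases clients from Hsp70, fell after 24 h with both. The scaling also ended the Hspb1 call with WS1442, and the Bag3 call with MeOH eluate was lost without 1 DMSO array. Hsph1, an Hsp110, fell with MeOH eluate after 6 h, and its falls after 24 h, called with both, were lost without 1 DMSO array. Hsp90aa1, the inducible Hsp90, passed no test. All values below are log2 normalized signals, a log2 (fold change) is the difference of group means on that scale, and a change was called at a Benjamini-Hochberg adjusted p under 0.05 over all genes (limma). With bulk RNA, fewer cells of a type and less RNA per cell cannot be told apart.

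With WS1442 for 6 h, 2 of 10 members were called higher and 0 lower, against 5.61% of all genes called in this comparison, 4.15% higher and 1.46% lower. The median log2 (fold change) of the members was 0.0398, that of all genes -0.0062. For the count of 0, limma gave 0 lower members also at an unadjusted p under 0.05, and the methods' t-test with adjustment called none in any direction. With MeOH eluate for 6 h, 3 were higher and 1 lower, against 17.1% of all genes called (8.7% higher, 8.39% lower), with medians of 0.0734 and -5e-04. With WS1442 for 24 h, 3 were higher and 3 lower, against 24.8% called (12.9% higher, 11.9% lower), with medians of 0.1436 and 0.0453. With MeOH eluate for 24 h, 3 were higher and 2 lower, against 18.2% called (9.64% higher, 8.61% lower), with medians of -0.0053 and 0.0125. Leaving out replicate 1 of DMSO at 24 h gave 3 higher and 1 lower with WS1442 and 2 higher and 0 lower with MeOH eluate at that time, and without DMSO 6 h replicate 1 no member was called with WS1442 at 6 h. The list was not tested against all genes. By the limits of the study, a change of more than 2-fold at an unadjusted p under 0.05, no member passed in these comparisons (limma), while 0.431% and 2.1% of all genes did with WS1442 and MeOH eluate at 6 h and 2.08% and 2.98% at 24 h. Scaling each array to its 75th percentile changed the splits at 24 h to 1 higher and 3 lower with WS1442 and to 2 higher and 3 lower with MeOH eluate.

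**Figure D1:**
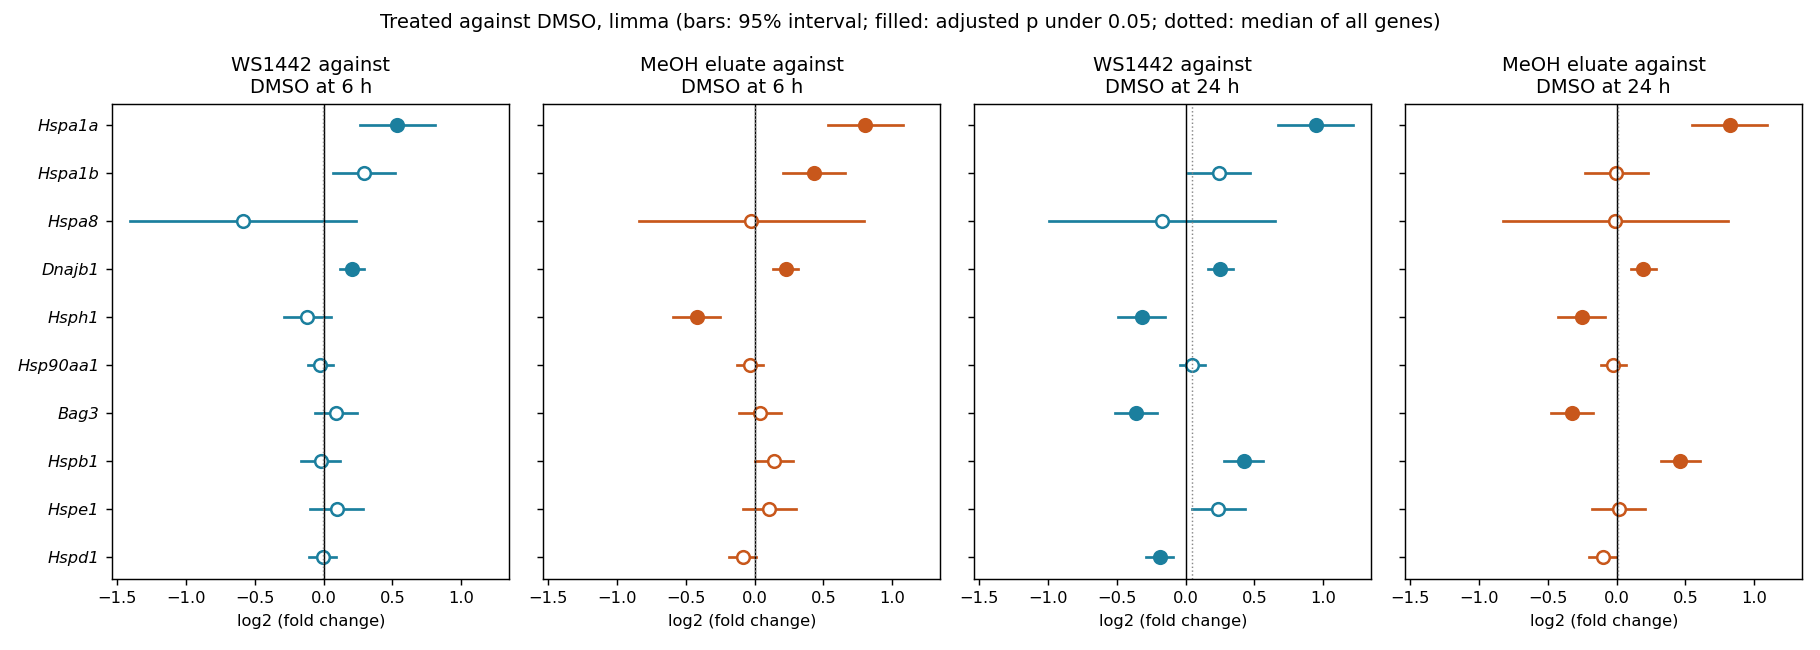
Log2 (fold change) of the 10 members against DMSO (x axis) with 95% intervals from limma, in 4 panels by preparation and time point. Filled points passed an adjusted p under 0.05, and the dotted line is the median of all genes. Hspa1a and Dnajb1 are filled on the right of 0 in all 4 panels, and the wide interval of Hspa8 stems from 1 array.

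Hspa1a (chr17:34969359-34972156, GRCm38.p6, minus strand) encodes the Hsp70 that is low in unstressed cells and rises under stress. At 6 h its signal was 6.81 and 6.88 with DMSO, 7.36, 7.32 and 7.47 with WS1442 and 7.62, 7.59 and 7.75 with MeOH eluate. At 24 h it was 6.68 and 6.36 with DMSO, 7.60, 7.46 and 7.34 with WS1442 and 7.31, 7.14 and 7.57 with MeOH eluate. All 12 treated arrays lay above both DMSO arrays of their time point. The log2 (fold change) was 0.54 ± 0.13 (SE) with WS1442 and 0.80 ± 0.13 with MeOH eluate at 6 h, which is 1.45-fold and 1.75-fold (adjusted p = 0.0267 and 0.000671, limma). After 24 h the log2 (fold change) was 0.94 ± 0.13 and 0.82 ± 0.13, or 1.92-fold and 1.76-fold (adjusted p = 0.000142 and 0.000356). Only the call with WS1442 at 6 h depended on single arrays: it was lost without DMSO replicate 1 (0.50, adjusted p = 0.252), DMSO replicate 2 (0.57, 0.0746) or WS1442 replicate 3 (0.49, 0.0935) of 6 h.

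Hspa1b (chr17:34956429-34959238) lies 10120 bases from Hspa1a and encodes a nearly identical Hsp70. The longest run that the probes of the pair share is 6 bases, and no other probe on the array shares 20 bases with either. Neither probe was compared with the transcript of the other gene. The first 30 bases of these probes are shown because the values of the pair rest on them.
Hspa1a probe: tccttagtttgtcctgcaatcaagtcctag
Hspa1b probe: tatctgcttgtccatgttaaggttttgtgg
At 6 h Hspa1b was 7.001 and 6.99 with DMSO, 7.22, 7.26 and 7.39 with WS1442 and 7.46, 7.33 and 7.49 with MeOH eluate, so every treated array lay above DMSO. At 24 h it was 6.66 and 6.52, then 6.98, 6.87 and 6.64, and 6.57, 6.55 and 6.63, and both treated groups overlapped with DMSO. Its 1 call among the comparisons with DMSO was a rise with MeOH eluate at 6 h (0.43 ± 0.11, adjusted p = 0.0123, limma), a call that was lost with the replicate number as a block (0.39, 0.0523) and without DMSO 6 h replicate 1 (0.44, 0.0846) or replicate 2 (0.43, 0.0655). The other values were 0.29 (0.129) with WS1442 at 6 h, 0.24 (0.112) with WS1442 at 24 h and -0.0012 (0.997) with MeOH eluate at 24 h. The last has an interval from -0.23 to 0.23, whereas that of Hspa1a in the same comparison ran from 0.55 to 1.09. The change of the MeOH eluate effect of Hspa1b between time points, -0.43, did not pass (adjusted p = 0.101).

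**Figure D2:**
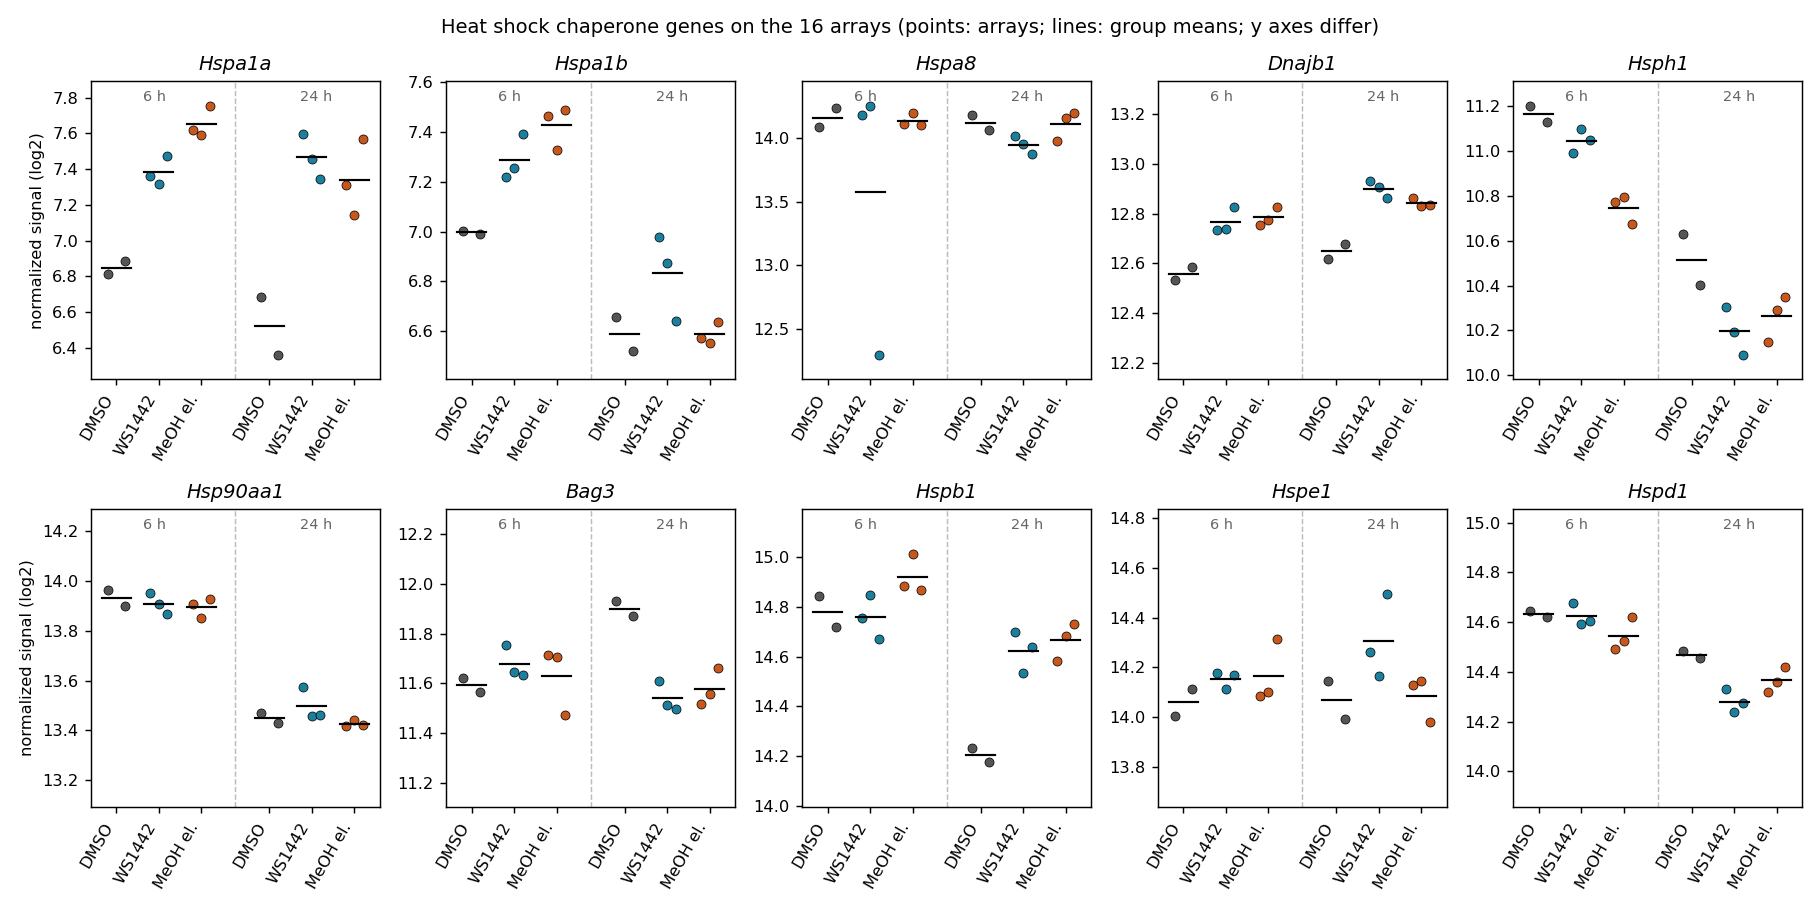
Normalized signal (log2, y axis, its range differs between panels) of each member on the 16 arrays by group, with DMSO, WS1442 and MeOH eluate at 6 h left and at 24 h right of the dashed line. Points are arrays and lines are group means. For Hspa1a the treated points lie above DMSO at both times, for Hspb1 and Bag3 the groups part at 24 h in opposite directions, and 1 WS1442 array at 6 h stands apart for Hspa8, at 12.30.

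Hspa8 (chr9:40801276-40805202) encodes the Hsp70 that cells hold at all times. Its signal lay between 13.88 and 14.26 on 15 arrays, DMSO and treated alike, and at 12.30 on the array of WS1442 6 h replicate 3. On that array the spot showed no flag and even pixels (SD 7.11% of the mean, against 4.8% to 14.6% on the other arrays). Its difference from the median of the other 6 h arrays was -1.745 on the log2 scale, while the 21 spots within 4 rows and columns whose median log2 signal was above 7 had a median difference of -0.226, against -0.179 to 0.12 around it on the other 6 h arrays. Some other chaperone genes also stood apart on that array. Hspa5 was 12.1214 there, against 12.8962 and 13.0004 on the other WS1442 arrays of 6 h. Cryab was 9.682 against 10.3944 and 10.4616, and Hsp90ab1 was higher, 16.0023 against 15.7511 and 15.8307. Hspa4 did not stand apart (13.9908 against 13.9654 and 13.9956). Whether the low Hspa8 value came from the spot or the sample was not tested. With that array no comparison of Hspa8 passed, and the SE was 0.38. Without it WS1442 at 6 h gave 0.06 in place of -0.59, and WS1442 at 24 h, where all 3 arrays (14.02, 13.95 and 13.88) lay below DMSO (14.18 and 14.06), gave -0.17 with an adjusted p of 0.0833 in place of 0.794 (limma).

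Dnajb1 (chr8:83608175-83612653) encodes the J-domain protein that hands clients to Hsp70. Its signal at 6 h was 12.53 and 12.58 with DMSO, 12.73, 12.74 and 12.83 with WS1442 and 12.75, 12.78 and 12.82 with MeOH eluate. After 24 h the signal was 12.62 and 12.68, then 12.93, 12.91 and 12.86, and 12.86, 12.83 and 12.84. Groups did not overlap in any of these comparisons, and the rises were small and alike in size. They came to 0.21 and 0.23 at 6 h and to 0.25 and 0.20 at 24 h (SE 0.04 each), or 1.14-fold to 1.19-fold, with adjusted p = 0.012, 0.00209, 0.000618 and 0.00403 (limma). Scaling to the 75th percentile ended the calls with MeOH eluate at 6 h (0.17, 0.0919), with WS1442 at 24 h (0.13, 0.152) and with MeOH eluate at 24 h (0.10, 0.334). The call with WS1442 at 6 h was lost with normexp background correction (0.16, 0.0517), with only the 8 arrays of 6 h (0.21, 0.0619), and without DMSO 6 h replicate 1 (0.18, 0.171) or WS1442 6 h replicate 3 (0.18, 0.0511), and that with MeOH eluate at 24 h without DMSO 24 h replicate 1 (0.17, 0.0656).

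Hsph1 (chr5:149616843-149636498) encodes an Hsp110, which helps Hsp70 to exchange ADP for ATP. At 6 h it was 11.20 and 11.13 with DMSO, 10.99, 11.10 and 11.05 with WS1442 and 10.77, 10.79 and 10.67 with MeOH eluate. At 24 h it was 10.63 and 10.40, then 10.30, 10.20 and 10.09, and 10.15, 10.29 and 10.35. Every treated array lay below the DMSO arrays of its time point. The fall was -0.42 ± 0.08 with MeOH eluate at 6 h (adjusted p = 0.00254, limma), -0.32 ± 0.08 with WS1442 at 24 h (0.00959) and -0.25 ± 0.08 with MeOH eluate at 24 h (0.04), whereas WS1442 at 6 h gave -0.12 (0.458). Without DMSO 24 h replicate 1, the higher of that pair, both values at 24 h lost their call (-0.20, 0.178 and -0.14, 0.451). That with MeOH eluate, which also ended with no filter on dim probes (0.0659), the replicate block (0.116), the slide row block (0.0669), array weights (0.0517) or only the 8 arrays of 24 h (0.0864), was lost as well without 4 other arrays, MeOH eluate 6 h replicate 1, WS1442 24 h replicate 2 and MeOH eluate 24 h replicates 1 and 2, where values ran from -0.27 to -0.20 and adjusted p from 0.0508 to 0.144.

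Bag3 (chr7:128523583-128546981) encodes a co-chaperone that joins Hsp70 to small heat shock proteins and steers clients to autophagy. At 6 h it was 11.62 and 11.56 with DMSO, 11.76, 11.65 and 11.63 with WS1442 and 11.71, 11.71 and 11.47 with MeOH eluate, which gave differences of 0.09 and 0.04 with no call (0.566 and 0.77). After 24 h the signal was 11.93 and 11.87 with DMSO, 11.61, 11.51 and 11.497 with WS1442 and 11.52, 11.56 and 11.66 with MeOH eluate. All 6 treated arrays of 24 h lay below both DMSO arrays. The log2 (fold change) of Bag3 was -0.36 ± 0.07 for WS1442 and -0.32 ± 0.07 for MeOH eluate (adjusted p = 0.00206 and 0.00501, limma), and the latter call was lost without DMSO 24 h replicate 1 (-0.29, 0.0587).

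Hsp90aa1 (chr12:110691036-110696395) was between 13.85 and 13.96 on all arrays of 6 h and between 13.42 and 13.57 on all arrays of 24 h, and treated and DMSO arrays overlapped in all 4 comparisons. The differences from DMSO ran from -0.03 to 0.05, and their 95% intervals lay between -0.13 and 0.14, so that changes beyond 0.14 on the log2 scale lay outside them. A second probe named for Hsp90aa1 was well above background on 2 of 16 arrays and was not tested.

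Hspb1 (chr5:135887919-135889563) encodes a small heat shock protein that binds unfolding clients and actin filaments. At 6 h it was 14.84 and 14.72 with DMSO, 14.76, 14.85 and 14.67 with WS1442 and 14.88, 15.01 and 14.87 with MeOH eluate. At 24 h it was 14.23 and 14.18 with DMSO, 14.70, 14.54 and 14.64 with WS1442 and 14.58, 14.68 and 14.73 with MeOH eluate. The arrays overlapped at 6 h with WS1442, and all 6 treated arrays of 24 h lay above DMSO. At 24 h Hspb1 rose, by 0.42 ± 0.07 for WS1442 and 0.46 ± 0.07 for MeOH eluate, or 1.34-fold and 1.38-fold (adjusted p = 0.000395 and 0.000169, limma), while 6 h gave -0.02 (0.909) and 0.14 (0.164). Scaling to the 75th percentile ended the call with WS1442 at 24 h (0.17, 0.123).

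Hspe1 (chr1:55088148-55091317) and Hspd1 (chr1:55077833-55088243) encode Hsp10 and Hsp60 of mitochondria. Hspe1 was not called in any comparison, with its largest difference with WS1442 at 24 h, where 14.26, 14.17 and 14.50 stood above DMSO at 14.15 and 13.99 (0.24 ± 0.09, adjusted p = 0.0687, limma). This value passed without WS1442 24 h replicate 2 (0.31, 0.0282) or MeOH eluate 6 h replicate 3 (0.24, 0.0495). Hspd1 at 24 h was 14.48 and 14.46 with DMSO, 14.33, 14.24 and 14.27 with WS1442 and 14.32, 14.36 and 14.42 with MeOH eluate. Both treated groups lay below DMSO, and the fall passed with WS1442 (-0.19 ± 0.05, adjusted p = 0.00746) but not with MeOH eluate (-0.10, 0.147), which passed with 75th percentile scaling (-0.26, 0.00351). The difference between preparations at 24 h was 0.09 (0.183). At 6 h it was 14.64 and 14.62, then 14.67, 14.59 and 14.61, and 14.49, 14.52 and 14.62, with no call (-0.0074 and -0.09).

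A second Hspd1 probe, with 73.7% G and C against 46.0% in the first, did not follow it. Its own accession is that of a predicted transcript, and it was named for Hspd1 through another accession listed as matching. It read 11.41 and 11.47 with DMSO, 11.45, 11.67 and 11.59 with WS1442 and 11.43, 11.43 and 11.56 with MeOH eluate at 24 h. WS1442 gave 0.13 ± 0.07 on it (adjusted p = 0.222 over all probes), opposite in sign to the first probe, and with both probes averaged the fall was not called (-0.03, 0.724). The fall was also lost without DMSO 24 h replicate 1 (-0.18, 0.0701). The call for Hspd1 thus rests on 1 of its probes.

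MeOH eluate and WS1442 were compared with each other at each time point, at their unequal doses. At 6 h, 1 of 10 members was called, against 12.2% of all genes (4.8% higher, 7.35% lower). This was Hsph1, 0.30 ± 0.07 lower with MeOH eluate (adjusted p = 0.0167, limma), with all 3 arrays of MeOH eluate below those of WS1442. It was lost without WS1442 6 h replicate 2 (-0.27, 0.0602), WS1442 6 h replicate 3 (-0.30, 0.0531) or MeOH eluate 6 h replicate 3 (-0.26, 0.0712). At 24 h 0 of 10 members were called by limma, against 14.6% of all genes (7.45% higher, 7.19% lower), 2 passed at an unadjusted p under 0.05 and the methods' t-test called 0 after adjustment. The 2 were Hspa1b (-0.24, adjusted p = 0.104) and Hspe1 (-0.22, 0.0813), each lower with MeOH eluate on all arrays, and each passed without 1 array, WS1442 24 h replicate 3 for Hspa1b (-0.34, 0.0444) and WS1442 24 h replicate 2 for Hspe1 (-0.29, 0.0391). For Hspa1a the intervals of the difference ran from 0.02 to 0.51 at 6 h and from -0.37 to 0.12 at 24 h, and for Hspb1 from 0.04 to 0.29 and from -0.08 to 0.17.

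The effects at 24 h were then set against those at 6 h. Levels were not compared between time points, because each time point was on its own slide. With WS1442, 2 of 10 members were called, against 12.8% of all genes (5.76% higher, 7% lower). The effect on Hspb1 was higher at 24 h by 0.44 ± 0.09 (adjusted p = 0.00821, limma) and that on Bag3 lower by 0.45 ± 0.10 (0.0115). With MeOH eluate the same genes were called, against 7.81% of all genes (3.93% higher, 3.88% lower), Hspb1 by 0.32 ± 0.09 (0.0493) and Bag3 by -0.36 ± 0.10 (0.0407). Both comparisons use the same DMSO arrays. With 75th percentile scaling the WS1442 split became 0 higher and 2 lower and no member was called for MeOH eluate. For Hspa1a the change was 0.41 (0.16) with WS1442 and 0.01 (0.974) with MeOH eluate.

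**Figure D3:**
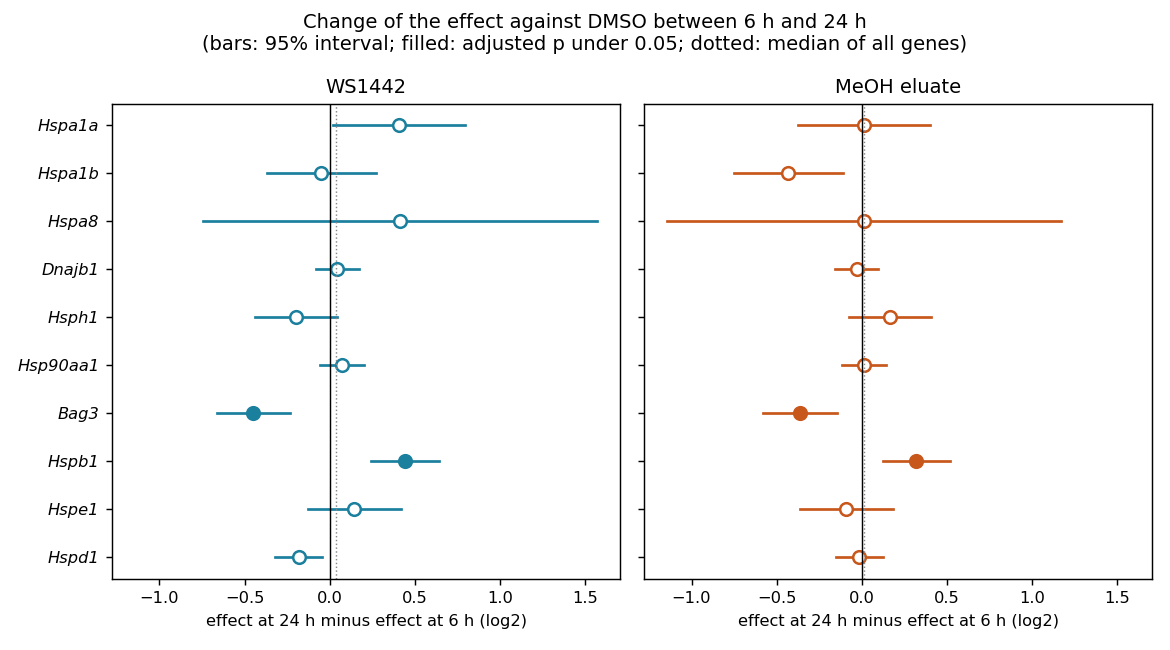
Effect against DMSO at 24 h minus that at 6 h (log2, x axis) for the 10 members, with 95% intervals from limma, for WS1442 (left) and MeOH eluate (right). Filled points passed an adjusted p under 0.05, and the dotted line is the median of all genes. Hspb1 lies to the right of 0 and Bag3 to the left in both panels.

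Among the other genes named as small heat shock proteins, 7 of 9 could be tested. Over all genes, 5.61% and 17.1% were called with WS1442 and MeOH eluate at 6 h and 24.8% and 18.2% at 24 h. At 6 h 2 rose with each preparation and 0 fell, and at 24 h 2 rose with each and 1 fell, with MeOH eluate, with list medians of 0.0993 and -0.0115 at 6 h and 0.2119 and 0.2517 at 24 h. For the lower count of 0, 1 gene with WS1442 and 0 with MeOH eluate at 6 h and 0 with WS1442 at 24 h were lower at an unadjusted p under 0.05 (limma), and the methods' t-test called 0 in each comparison. Hspb8, which works with Bag3, was 10.72 and 10.95 with DMSO at 6 h, 11.24, 11.39 and 11.55 with WS1442 and 11.79, 12.00 and 11.75 with MeOH eluate. It rose by 0.56 ± 0.10 (adjusted p = 0.00518) and 1.01 ± 0.10 (7.28e-06), and all treated arrays stood above DMSO. Cryab, alpha B-crystallin, at 24 h was 10.41 and 10.34 with DMSO, 11.10, 11.24 and 11.07 with WS1442 and 11.38, 11.22 and 11.67 with MeOH eluate, again without overlap. It rose by 0.76 ± 0.17 (0.00551) and 1.05 ± 0.17 (0.000592). At 6 h, by contrast, all treated Cryab arrays lay below DMSO, with no call. Cryab was then 10.71 and 10.58 with DMSO, 10.39, 10.46 and 9.68 with WS1442 and 10.42, 10.44 and 10.41 with MeOH eluate. Its neighbour gene Hspb2 rose with it at 24 h (0.25, 0.0239 and 0.57, 6.74e-05), and Hspb6 fell with MeOH eluate at 24 h (-0.47, 0.006). Hspb11 also rose at 6 h (0.46, 0.0154 and 0.34, 0.0296). It stands in the list by its name only and encodes a subunit of intraflagellar transport. Apart from it, only Hspb8 was called at 6 h.

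**Figure D4:**
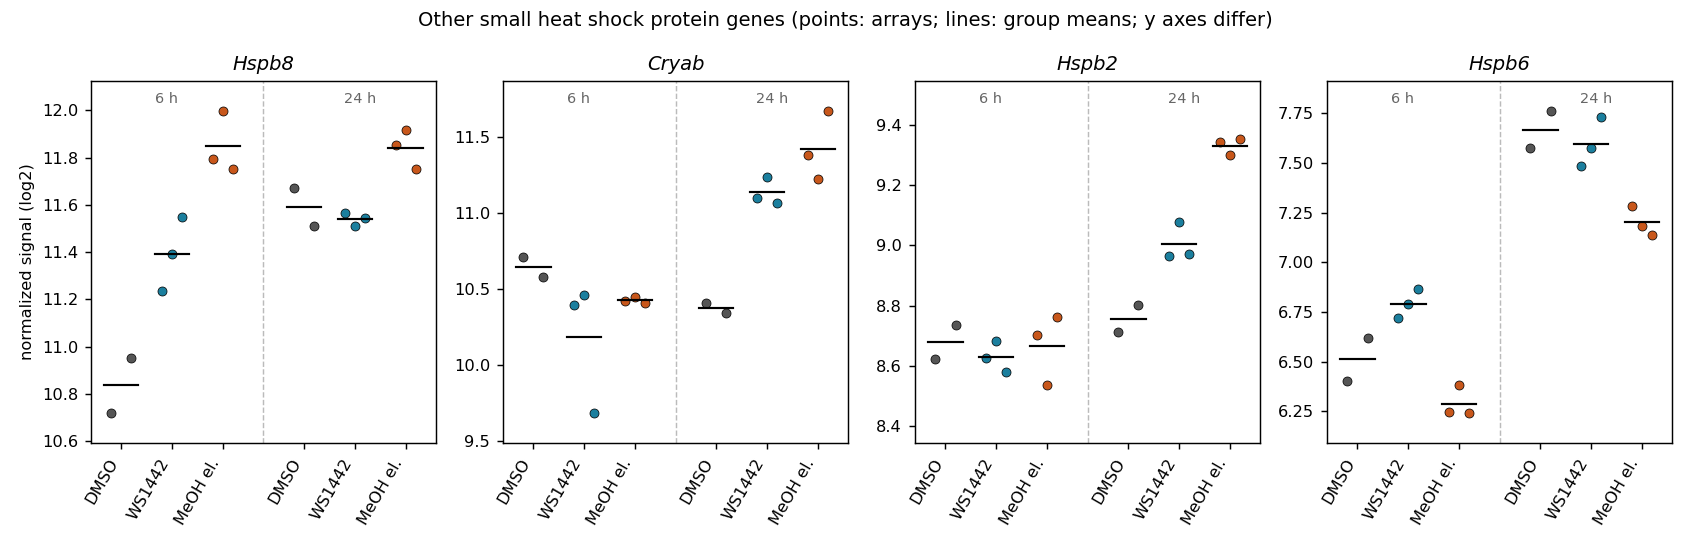
Normalized signal (log2, y axis, its range differs between panels) of Hspb8, Cryab, Hspb2 and Hspb6 on the 16 arrays by group, at 6 h left and at 24 h right of the dashed line. Points are arrays and lines are group means. Treated arrays lie above DMSO for Hspb8 at 6 h and for Cryab and Hspb2 at 24 h, and below DMSO for Cryab at 6 h.

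The heat shock factors and their regulators were 7 genes. Their counts, and those of the list after them, are to be read against all genes. Of these 5.61% and 17.1% were called with WS1442 and MeOH eluate at 6 h and 24.8% and 18.2% at 24 h. With WS1442 at 6 h 0 were called by limma (1 lower at an unadjusted p under 0.05, 0 by the methods' t-test), and at 24 h 1 fell, Hsf5 (-0.47, 0.0342). The Hsf5 signal was low, 4.48 against 4.95 with DMSO, though well above background on every array of both groups. With MeOH eluate at 6 h 2 fell, Hsf1, the main factor (-0.25 ± 0.06, 0.0145), and Hsf2bp, a binding partner of HSF2 (-0.81, 0.00905). Hsf2bp was also low in signal, 4.93 against 5.74 with DMSO. At 24 h with MeOH eluate Hsbp1, which binds and restrains HSF1, rose (0.44 ± 0.09, 0.00265). Of 18 other genes known to rise with heat shock, a list that overlaps with those above, 3 rose and 0 fell with WS1442 at 6 h, where 2 were lower at an unadjusted p under 0.05. The counts were 4 and 4 with MeOH eluate at 6 h, 4 and 6 with WS1442 at 24 h and 3 and 3 with MeOH eluate at 24 h, and the list medians ran from -0.0864 to -0.0321. The largest called change of this list at 24 h was that of Atf3. It rose by 1.33 with WS1442 (6.44e-08, limma) and by 1.60 with MeOH eluate (4.76e-09), while Rgs2 fell with MeOH eluate (-0.80, 0.000173).

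Partners of the members were as mixed, and their counts are to be read against the 5.61%, 17.1%, 24.8% and 18.2% of all genes called with WS1442 and MeOH eluate at 6 h and at 24 h. Of 14 co-chaperones of Hsp90 and Hsp70, 0, 0, 1 and 3 rose and 0, 2, 3 and 2 fell in these comparisons (at the counts of 0, 2 were higher and 1 lower with WS1442 and 3 higher with MeOH eluate at 6 h at an unadjusted p under 0.05 by limma, and the methods' t-test called 0). Chordc1, a partner of Hsp90, fell with MeOH eluate at 6 h (-0.45, 0.00501) and at 24 h (-0.33, 0.0276), and Fkbp5, which binds Hsp90 with steroid receptors, fell at 24 h (-0.35, 0.00458 and -0.37, 0.00371). Ahsa1, which drives the ATPase of Hsp90, fell with MeOH eluate at 6 h (-0.15, 0.0225) and with WS1442 at 24 h (-0.25, 0.000577), whereas Hspbp1, an exchange factor of Hsp70, rose at 24 h (0.32, 0.00193 and 0.21, 0.0342). Of 16 J-domain genes 0, 1, 1 and 2 rose and 0, 1, 3 and 2 fell (with WS1442 at 6 h, 4 were higher and 1 lower at an unadjusted p under 0.05 by limma, and the methods' t-test called 0). Dnaja4 rose at 24 h (0.42, 0.00252 and 0.27, 0.04), Dnajc21 fell with MeOH eluate at 6 h (-0.19, 0.0345) and with both at 24 h (-0.34, 0.000718 and -0.23, 0.0108), and Dnaja1 fell with WS1442 at 24 h (-0.26, 0.00255). Among other Bag genes Bag1 rose at 24 h (0.44, 0.00118 and 0.27, 0.0285), while Bag2 fell with WS1442 at 24 h (-0.49, 0.000965). Of 9 other Hsp70 and Hsp110 genes 0, 1, 3 and 1 rose and 0, 2, 1 and 1 fell (with WS1442 at 6 h, 2 were higher and 1 lower at an unadjusted p under 0.05 by limma, and the methods' t-test called 0). Hspa4 (-0.23, 0.000507) and Hspa2 (-0.38, 0.012) fell with MeOH eluate at 6 h, Hspa12b with WS1442 at 24 h (-0.83, 0.0397) and Hspa12a with MeOH eluate at 24 h (-0.63, 0.0216). The Hspa12b signal was low, 5.04 against 5.87 with DMSO. Hspa4l rose with MeOH eluate at 6 h (0.55, 0.0336) and with both at 24 h (0.53, 0.0302 and 0.70, 0.00762). Of the 8 subunits of TRiC, the chaperonin of the cytosol, 1 rose and 3 fell with WS1442 at 24 h and 1 rose and 2 fell with MeOH eluate, and of 9 other mitochondrial chaperones and proteases 2 rose and 1 fell with each.

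Chaperones of the endoplasmic reticulum, which are controlled by another stress response, mostly fell where they were called. Over all genes, 1.46% and 8.39% were called lower with WS1442 and MeOH eluate at 6 h and 11.9% and 8.61% at 24 h. Of 14 genes, 1 rose and 0 fell with WS1442 at 6 h (0 lower also at an unadjusted p under 0.05), 1 rose and 6 fell with MeOH eluate at 6 h, 0 rose and 8 fell with WS1442 at 24 h and 0 rose and 3 fell with MeOH eluate at 24 h (0 higher also at an unadjusted p under 0.05 in both), with list medians of 0.0106, -0.2421, -0.251 and -0.1381. Creld2 fell by 0.36 with MeOH eluate at 6 h (0.0125), by 0.54 with WS1442 at 24 h (0.000562) and by 0.35 with MeOH eluate at 24 h (0.0128). Hsp90b1, the Hsp90 of this compartment, fell at 24 h (-0.42, 0.000718 and -0.27, 0.0128). The 31 proteasome subunits split evenly, with 7 higher and 8 lower with WS1442 at 24 h and 3 and 3 with MeOH eluate. Of all genes 12.9% were higher and 11.9% lower with WS1442 at 24 h, and 9.64% and 8.61% with MeOH eluate.

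As a description of likeness, the values of each time point were centred on their mean over its 8 arrays, and the mean profile of Hspa1a, Hspa1b, Dnajb1, Hsph1, Hsp90aa1 and Bag3 was taken over the 16 arrays. The genes closest to it outside the set were Magee1, Serinc3, Slu7, Ap3d1 and Pakap, with Pearson coefficients of 0.86 to 0.89. Within the set the coefficients were 0.90 for Hspa1b, 0.85 for Hspa1a, 0.78 for Dnajb1, 0.26 for Hsp90aa1, -0.12 for Bag3 and -0.38 for Hsph1. Each of these genes is itself part of the mean, which raises its coefficient. Their values can therefore not be set against those of genes outside the set. For the mean of Hspe1 and Hspd1 the closest were Hnrnpr, Rbm41, Nus1 and a pair of unnamed transcripts. Hspd1, though part of that mean, correlated with it only at 0.21.

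RNA integrity numbers lay between 8.6 and 10 and replicates correlated between 0.9838 and 0.995. The arrays differed in other measures. The share of spots well above background was 63.0% and 55.5% on DMSO 24 h replicates 1 and 2, and 55.1% to 62.8% on the other arrays. Cy3 incorporation at 24 h did not overlap between groups and was 25.8 to 26.1 pmol/µg with DMSO, 27.1 to 30.3 with MeOH eluate and 31.8 to 32.8 with WS1442. All 8 pluripotency markers and all 8 markers of the primitive streak and mesoderm were well above background on every array, and Myh6, a marker of beating cardiomyocytes, was so on no array of 24 h. The summed signal of the mesoderm markers was 4190 to 4280 with DMSO, 3150 to 3490 with WS1442 and 2430 to 2600 with MeOH eluate at 6 h, and 3770 to 3850, 3130 to 3320 and 2680 to 3040 at 24 h. Few of the 8 carried this at 6 h, where the list medians were 0.0471 and 0.0679 while Mixl1 fell (-0.99, 2.96e-06 and -2.39, 2.53e-11). Of 9 cardiac markers tested 4 fell and 1 rose with WS1442 and 5 fell with MeOH eluate at 24 h (limma), where 24.8% and 18.2% of all genes were called. Myl7 (-1.17, 0.000154 and -2.02, 8.2e-07) and Gata4 (-0.72, 0.000961 and -1.38, 3.47e-06) fell with both. At 6 h Myl7 rose with both (0.61, 0.0383 and 1.05, 0.000496), and 0 of the 9 were called lower (1 with each at an unadjusted p under 0.05). Of 4 endoderm markers tested, 2 fell and 1 rose with WS1442 and 1 fell with MeOH eluate at 24 h. Sox17 fell with both (-1.24, 4.52e-05 and -1.65, 2.11e-06), whereas Afp rose with WS1442 (0.515, 0.00389). The summed signal of the neuroectoderm markers at 24 h was 3160 to 3260 with DMSO, 4650 to 5180 with WS1442 and 3870 to 4490 with MeOH eluate. This sum mostly follows Nes, whose mean was 11.28, 12.06 and 11.86 in these groups. With DMSO the means of Otx2, Sox1 and Pax6 were 9.27, 6.39 and 3.85. Pax6 was well above background on only 1 DMSO array of 24 h. Of the 4 neuroectoderm markers 3 rose with WS1442 and 2 with MeOH eluate, while Otx2 fell with MeOH eluate (-0.62, 0.00459, limma). The part of labelling and of cell composition in the changes of the chaperone genes was not tested.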

How the data were processed

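RNA of 16 samples was labelled with Cy3 and hybridised to 1-colour Agilent arrays. The authors deposited scanner intensities, background corrected by Feature Extraction 11.5.1.1, and a table of intensities quantile normalized over all arrays, which served as an alternative. Log2 intensities of the scanner were quantile normalized with limma 3.58.1 (R 4.3.3, Python 3.11.15). Non-uniform and outlier spots were left out, which left 25 missing values. A probe stayed (36729 did) if some group had it well above background throughout, and the brightest represented its gene. A model of 6 group means was fitted (limma, eBayes with trend) with Benjamini-Hochberg adjustment over 29226 genes, and tested on simulated data. No counts stand behind an array signal, so the number of arrays limits the precision. Student's t-test, named in the study's methods for pairwise comparisons though not for the arrays, was an alternative, here the methods' t-test. Other alternatives changed scaling, background correction, filter, probe choice, blocks, weights and samples. All members were named, and of each other list at most the 3 genes with the largest called change per comparison. Members and lists were chosen with earlier results of these data known. Sequences and coordinates are from RefSeq, GRCm38.p6, or from the probe column of the files.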

Additional observations from a re-analysis of the deposited data

Results flagged for a closer look

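The effect on Hspb1 differed between time points by the test of that difference (limma), 0.44 for WS1442 (adjusted p = 0.00821) and 0.32 for MeOH eluate (0.0493). The effect on Bag3 also differed, -0.45 for WS1442 (0.0115) and -0.36 for MeOH eluate (0.0407). The values with WS1442 lost their call without 1 array each, DMSO 6 h replicate 1 for Hspb1 (0.38, 0.0526) and DMSO 24 h replicate 1 for Bag3 (-0.42, 0.0545). Those with MeOH eluate lost it when any of 10 of the 16 arrays was left out, with Hspb1 from 0.26 to 0.35 (0.0505 to 0.226) and Bag3 from -0.39 to -0.32 (0.0509 to 0.133). Time point and slide coincide, so a slide effect that differs between treated and DMSO arrays and an effect of time cannot be told apart.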

How the results depend on the processing

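Of 80 results for single genes 22 were called, and each was recomputed under up to 26 alternatives. None of the 564 recomputed values of called results changed sign, but 84 lost their call, and 9 values not called before passed. Only 6 called results kept their call under every alternative other than the methods' t-test: Hspa1a with MeOH eluate at 6 h and with both at 24 h, Hspb1 and Hsph1 with MeOH eluate at 24 h and 6 h, and Bag3 with WS1442 at 24 h. The methods' t-test called 0 members in the comparisons with DMSO and between preparations. The count of members called with WS1442 at 6 h (2) became 1 with normexp background correction and 1 with only the 8 arrays of the time point, 0 to 2 with 1 array left out. The count between preparations at 6 h (1) became 2 with normexp, and the count for the change of the MeOH eluate effect with time (2) became 0 with 75th percentile scaling, 0 without the filter, and 1 with normexp, probe means, slide row block or array weights. With 1 array left out, ranges were 3 to 4 (MeOH eluate 6 h), 4 to 7 (WS1442 24 h), 2 to 5 (MeOH eluate 24 h), 0 to 1 (between preparations at 6 h and at 24 h), 1 to 2 (change with time, WS1442) and 0 to 2 (MeOH eluate). A lone DMSO array was then assumed to vary like the other groups. The cause was not tested.

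With the replicate number as a block, 0 members in place of 2 were called with WS1442 at 6 h (Hspa1a 0.49, adjusted p = 0.0837), 1 in place of 2 for the change of the MeOH eluate effect with time, and the other counts stayed within 1.5 times. The deviations of samples of the same number correlated with r from -0.2351 to 0.3056. With so few arrays per group, these values cannot show whether samples of the same number belong together. The arrays give no depth, and probe brightness and 2 DMSO arrays per time point limit what can be called.

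Over all genes, calls with WS1442 at 6 h dropped from 1640 to 553 with the block, 481 with the time point's arrays only, 239 without DMSO 6 h replicate 1 and 585 without WS1442 6 h replicate 3. Without DMSO replicate 1 of the time point, 4997 became 1981 (MeOH eluate 6 h), 7243 became 3833 (WS1442 24 h) and 5333 became 3334 (MeOH eluate 24 h), and without MeOH eluate 6 h replicate 3, 4997 became 3203. The methods' t-test called 1, 8, 103 and 324 genes in these comparisons. Between preparations, 3552 at 6 h became 70 with it, 2211 with the slide row block, 1606 with the time point's arrays only and 1419 at the least without 1 array, and 4276 at 24 h became 210 with it and 2027 at the least. The change with time went from 3731 to 1968 with the block and 1490 at the least (WS1442), and from 2283 to 1437 and 1330 (MeOH eluate).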
